A study of Mus musculus with 6 samples.

Results

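The smooth muscle genes of peritubular myoid cells were followed in whole testes of mice in which Sertoli cells had lost ATRX, a chromatin remodeling protein. The group was defined by name, as the gene rows ACTA2, ACTG2, MYH11, MYLK, CNN1, CALD1, TAGLN, SMTN, TPM2 and DES (Acta2, Actg2 and so on below), and all 10 were found among the 30774 gene rows of the arrays. The samples were 3 ScAtrxKO and 3 wild-type testes of male C57BL/6 mice at 12 days of age (P12), each hybridized to its own array of the Illumina MouseWG-6 v2.0 BeadChip, a single-colour bead array. In ScAtrxKO mice a floxed Atrx gene was removed by Cre under the AMH promoter, which is active in Sertoli cells, so the peritubular cells themselves were not the target. The sources used here do not say whether the wild-type mice carried a floxed allele or the transgene, nor whether the 3 testes of a genotype came from separate animals, and p-values therefore measure the spread between these samples. RNA came from the whole organ, in which fewer cells of a type and less RNA per cell cannot be told apart.

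Peritubular myoid cells are flat, contractile cells that wrap the seminiferous tubules. They share a contractile program with the smooth muscle of vessels: actin and myosin filaments, a kinase that switches myosin on in response to calcium, proteins that lie along the actin filament and tune its use, and the intermediate filament desmin. In smooth muscle in general, serum response factor (SRF) with its cofactors binds CArG boxes in the promoters of many of these genes. Contraction of the tubule wall is driven by hormones such as endothelin, vasopressin and angiotensin II, and the cells depend on signals from Sertoli cells, among them Desert hedgehog and platelet-derived growth factors.

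Of the 10 genes, Des was the only gene that passed the test. Des rose 1.53-fold in ScAtrxKO testes, while the smooth muscle actins, the myosin light chain kinase, caldesmon, smoothelin and beta-tropomyosin did not pass. The detection p of a row is the chance that background alone would give a signal at least as high. Rows were tested where this value fell below 0.01 for 1 array or more. This held for 7 of the 10 genes, and 6 of them were detected on all 6 arrays. Myh11, Cnn1 and Tagln were detected on 0 arrays and were not tested. At an adjusted p under 0.05 (limma, Benjamini-Hochberg over 13026 rows), 1 of the 7 tested genes was higher, where 7.47% of all tested rows were higher. None of the 7 was lower (0 of 7, and 1 at an unadjusted p under 0.05), where 5.50% of all tested rows were lower. The median log2 fold change of the 7 genes was 0.02, beside -0.01 for all tested rows, and single genes ranged from -0.18 to 0.61. Values are the authors' normalized values on a log2-like scale unless an intensity is named, and they are not compared between genes.

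**Figure D1:**
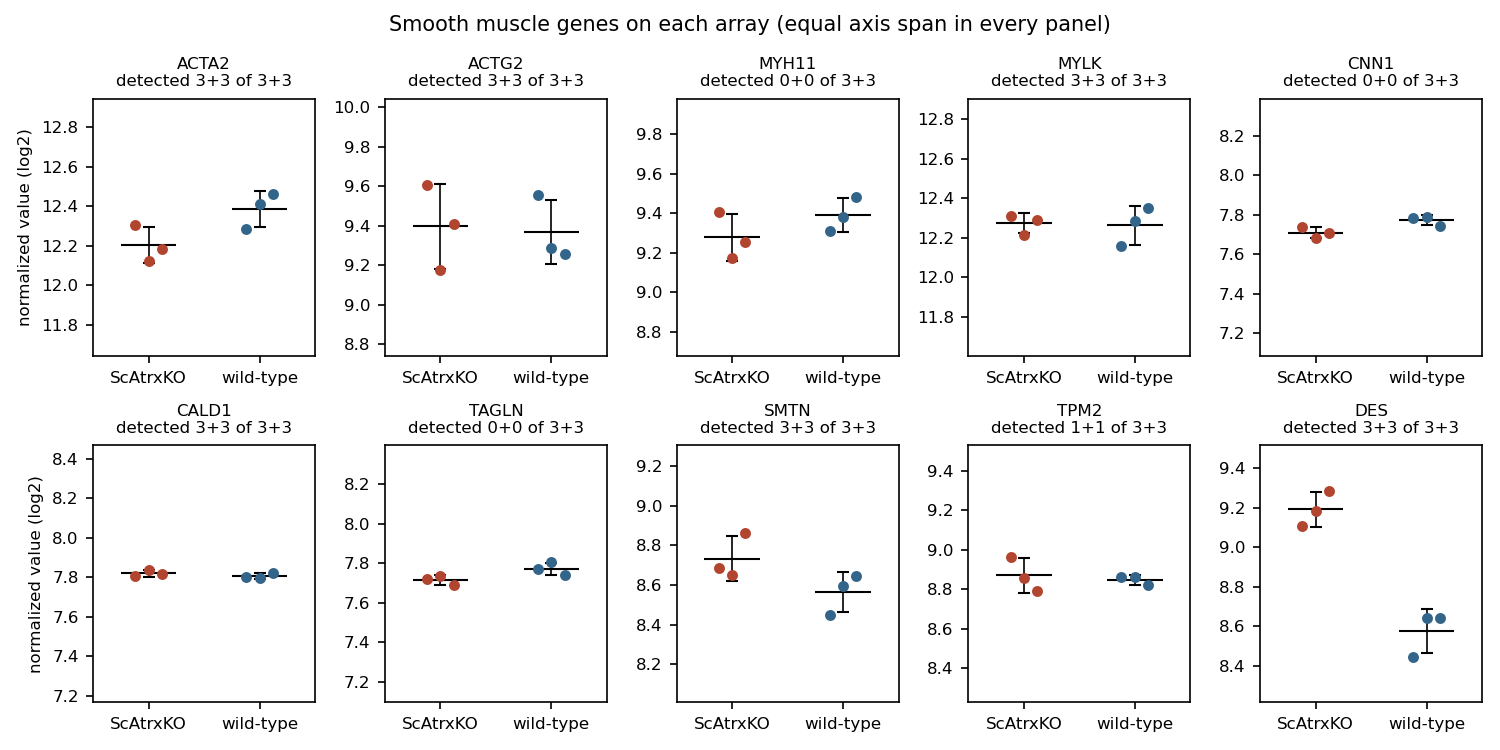
Normalized value (log2) of each of the 10 smooth muscle genes on the 3 ScAtrxKO arrays (left in each panel) and the 3 wild-type arrays (right); points are arrays, bars the mean and whiskers the SD, and the line under each name gives the arrays with detection in ScAtrxKO plus wild-type. Des is the panel with a wide gap, 9.11 to 9.28 in ScAtrxKO against 8.44 to 8.64 in wild-type testes, while Acta2, Actg2, Mylk, Cald1 and Tpm2 overlap between genotypes.

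Desmin forms the intermediate filaments that tie contractile units to each other and to the cell membrane in muscle cells. The normalized value of Des was 9.11, 9.18 and 9.28 in ScAtrxKO testes, against 8.44, 8.64 and 8.64 in wild-type testes. All 3 ScAtrxKO values lay above the highest wild-type value. Of the 7 tested genes Des and Smtn, 2 in all, did so and 0 lay wholly below, where 16.2% of all tested rows were wholly above, 17.6% wholly below and 33.8% apart in either direction. Before normalization its intensity was 422.7, 608.8 and 672.1 in ScAtrxKO and 183.6, 252.8 and 254.5 in wild-type testes. With each array scaled to a common median of the rows detected on all arrays, the means were 526 ± 46.1 in ScAtrxKO and 248 ± 39.8 in wild-type testes (SD, n = 3 each), a wider ratio than on the variance-stabilized scale, which compresses dim rows. The log2 fold change was 0.61 (standard error, SE, 0.07, 95% interval 0.45 to 0.77, n = 3 each), with an adjusted p = 0.00167 from limma. By p-value Des ranked 163 among the 13026 tested rows, and by the size of its increase it ranked 120. The gene also passed the fold limit of 1.5, as did 1.30% of the tested rows in either direction. It passed narrowly, since the limit is 0.58 on the log2 scale, and without wild-type replicate 1 or without ScAtrxKO replicate 3 the change was 0.55 and 0.57, under the limit but with adjusted p-values of 0.00443 and 0.00449.

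Acta2 encodes the alpha actin of smooth muscle, the usual marker of peritubular myoid cells in tissue sections. Its promoter is shown beside that of Des, because Acta2 gave the lowest and Des the highest fold change of the 7 tested genes. The windows run from 250 bases before to 50 bases after the start given in RefSeq (GRCm38.p6), Acta2 at chr19:34255324-34255623 on the minus strand and Des at chr1:75360042-75360341 on the plus strand, and capitals mark matches to the CArG box (CC, then 6 inner bases, then GG) with at most 1 G or C among the inner bases.
Acta2: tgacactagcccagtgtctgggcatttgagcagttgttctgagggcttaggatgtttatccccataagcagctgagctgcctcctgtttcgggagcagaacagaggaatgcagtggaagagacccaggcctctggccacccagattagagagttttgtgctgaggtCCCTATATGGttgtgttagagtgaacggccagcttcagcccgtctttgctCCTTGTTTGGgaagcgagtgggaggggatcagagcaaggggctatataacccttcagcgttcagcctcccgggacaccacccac
Des: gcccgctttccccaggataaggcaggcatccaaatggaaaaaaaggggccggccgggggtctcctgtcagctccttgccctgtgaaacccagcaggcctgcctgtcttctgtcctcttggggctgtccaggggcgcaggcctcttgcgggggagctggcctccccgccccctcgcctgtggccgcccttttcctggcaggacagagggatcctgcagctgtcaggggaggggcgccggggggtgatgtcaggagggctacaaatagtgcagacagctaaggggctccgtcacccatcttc
The Acta2 window held 2 such matches, which begin at -84 and -34 from the start, as at least 2 did in 0.822% of the 32851 promoter windows of the table, and 9.98% of all windows held at least 1. The Des window held 0. The motif reads the same on both strands and no other motif was searched. A CArG box with only A and T inside was found in 1.63% of all windows and in none of the 8 windows listed for 7 of the 10 genes, and Acta2 had the only window of the 8 with the looser form. Sites outside the windows were not searched, and whether the matches bear on the fold changes was not tested.

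For Acta2 the normalized value was 12.31, 12.12 and 12.19 in ScAtrxKO and 12.29, 12.41 and 12.46 in wild-type testes. The genotypes overlapped, with ScAtrxKO replicate 1 above wild-type replicate 1. Acta2 did not pass the test, with a log2 fold change of -0.18 (SE 0.06, 95% interval -0.33 to -0.03) and an adjusted p = 0.106 from limma. On the non-normalized scale the sign was the other way, 5698 ± 565 in ScAtrxKO and 5595 ± 389 in wild-type testes (SD, n = 3 each), and the arrays of ScAtrxKO replicates 2 and 3 had the highest mean intensity of all rows, 469 and 458. After each array was scaled to a common median of the rows detected on all arrays, Acta2 had an intensity of 5350 ± 338 in ScAtrxKO and 6027 ± 340 in wild-type testes (SD, n = 3 each).

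Actg2, the gamma actin of enteric smooth muscle, had normalized values of 9.60, 9.18 and 9.41 in ScAtrxKO, against 9.55, 9.29 and 9.26 in wild-type testes. On this scale, which compresses dim rows, its SD within a genotype was the largest of the group, 0.214 in ScAtrxKO and 0.162 in wild-type testes. Its log2 fold change was 0.03 (95% interval -0.24 to 0.30, adjusted p = 0.897 from limma). The heavy chain of smooth muscle myosin, Myh11, was bright but did not count as detected. Its intensity was 573.5, 605 and 650.8 in ScAtrxKO and 538, 585.4 and 657.7 in wild-type testes, yet its lowest detection p on any array was 0.0859. These intensities overlapped between genotypes. No fold is given for Myh11.

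Mylk encodes the kinase that phosphorylates the myosin light chain and so starts contraction. Its normalized values were 12.31, 12.22 and 12.29 in ScAtrxKO, against 12.16, 12.29 and 12.35 in wild-type testes. All 3 ScAtrxKO values lay within the wild-type range. The log2 fold change was 0.01 with a 95% interval from -0.12 to 0.14 (adjusted p = 0.935 from limma), which leaves 1.5-fold outside. The row A930019C19RIK, whose name is a synonym of Mylk in the reference, was detected on 0 arrays.

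Calponin (Cnn1), caldesmon (Cald1) and transgelin (Tagln, also known as SM22) bind actin filaments, and the first pair restrain the myosin motor. Cnn1 stood at background, with intensities of 7.4, -2.4 and 4 in ScAtrxKO and 18.4, 19.5 and 10.3 in wild-type testes. Tagln gave 4.5, 10.9 and -1 in ScAtrxKO and 16.2, 23.1 and 10.2 in wild-type testes. Every ScAtrxKO intensity of Cnn1 was below every wild-type one, whereas those of Tagln overlapped, and no fold is given for either because both genotypes were below the detection limit. So 2 common markers of smooth muscle, Cnn1 and Tagln, were not measurable here, and the sources used here do not give where their probes lie.

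Cald1 was dim but detected on every array, with normalized values of 7.80, 7.84 and 7.82 in ScAtrxKO and 7.80, 7.80 and 7.82 in wild-type testes. The genotypes overlapped, and the log2 fold change was 0.01 (95% interval -0.07 to 0.10, adjusted p = 0.856 from limma). The row C920027I18RIK, a synonym of Cald1 in the reference, was also detected on all arrays and had a log2 fold change of 0.05 (SE 0.04, adjusted p = 0.474). Such dim rows are compressed on the variance-stabilized scale: with plain log2 values and quantile normalization Cald1 had 0.17 (SE 0.15).

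Smoothelin (Smtn) marks contractile, differentiated smooth muscle. The normalized value of Smtn was 8.69, 8.65 and 8.86 in ScAtrxKO, against 8.45, 8.59 and 8.65 in wild-type testes. All 3 ScAtrxKO values were above all 3 wild-type values, but by only a narrow margin between ScAtrxKO replicate 2 and wild-type replicate 3. Smtn did not pass, with a log2 fold change of 0.17 (SE 0.07, 95% interval 0.00102 to 0.34) and an adjusted p = 0.171 from limma. Tpm2, the beta-tropomyosin that runs along the actin filament, was detected on 1 array of each genotype. Its normalized values were 8.97, 8.86 and 8.79 in ScAtrxKO and 8.86, 8.86 and 8.82 in wild-type testes. They overlapped, and the log2 fold change was 0.02 (95% interval -0.10 to 0.14, adjusted p = 0.831).

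**Figure D2:**
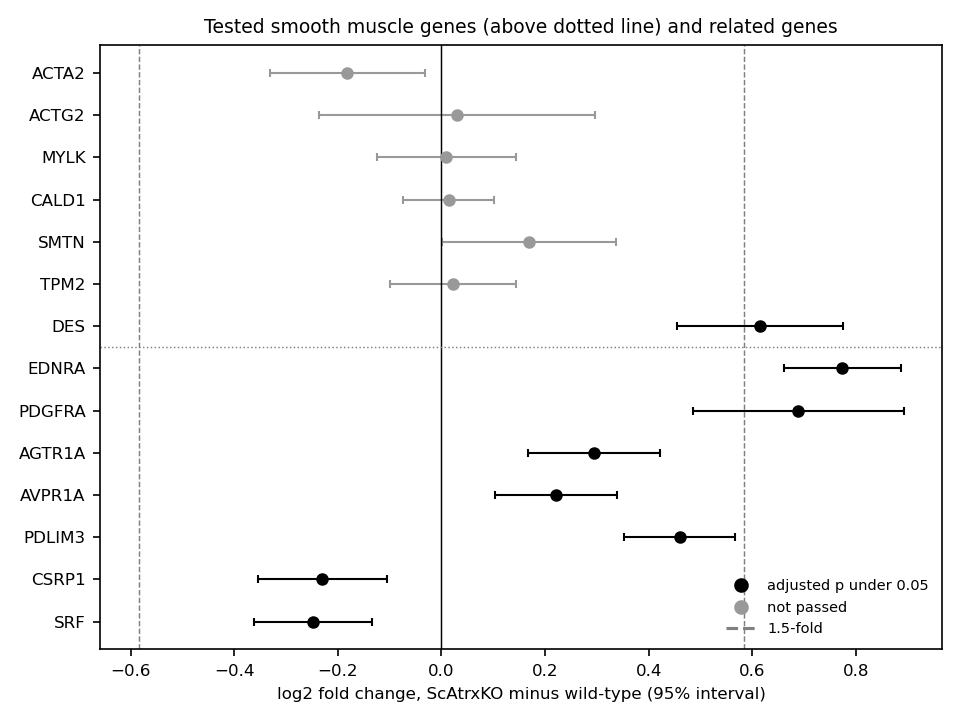
Log2 fold change of ScAtrxKO minus wild-type testes with its 95% interval from limma, for the 7 tested smooth muscle genes (above the dotted line) and 7 related genes (below it); black points passed an adjusted p of 0.05, grey points did not, and dashed lines mark 1.5-fold. Des is the smooth muscle gene that passed, at 0.61, and the intervals of Actg2, Mylk, Cald1 and Tpm2 cross 0.

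Des also passed, and the other 6 did not, under 3 other scalings of the intensities. Des changed by 0.67 under neqc (adjusted p = 0.0114), by 1.08 with log2 values and quantile normalization (adjusted p = 0.0211) and by 1.09 with median scaling (adjusted p = 0.0197), all from limma. Acta2 stayed between -0.17 and -0.18 under these 3 scalings and Smtn between 0.15 and 0.36, with adjusted p-values of 0.160 to 0.286 for Acta2 and 0.240 to 0.255 for Smtn. Mylk stayed within 0.01 of 0. Over all tested rows 973 were higher and 717 lower with the deposited normalization, 687 and 425 with neqc, 547 and 227 with log2 values and quantile normalization, and 546 and 228 with median scaling.

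**Figure D3:**
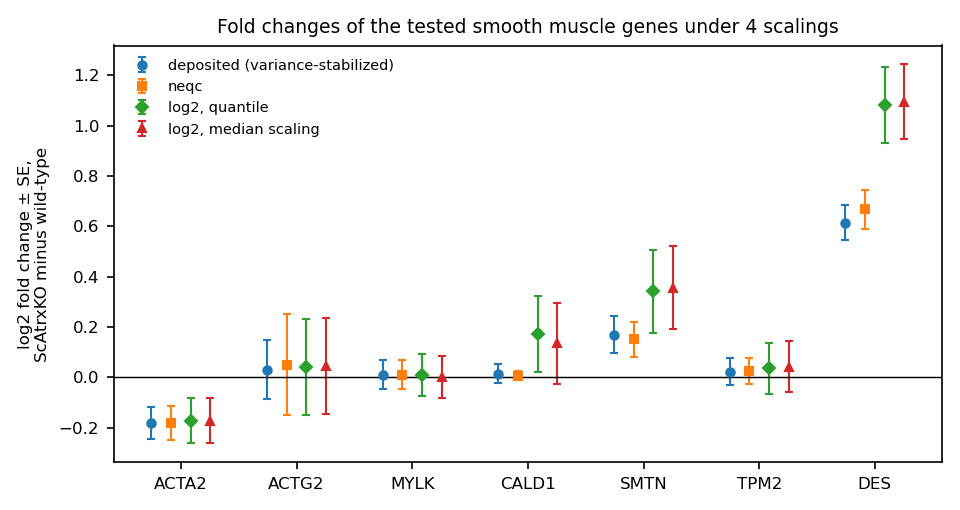
Log2 fold change (ScAtrxKO minus wild-type, with the SE) of the 7 tested smooth muscle genes under the deposited normalization, neqc, log2 with quantile normalization and log2 with median scaling. Des is highest under each of the 4, from 0.61 to 1.09, and Acta2 lies below 0 under each.

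Most other genes of the contractile machinery that were tested did not pass. Of 32 further contractile, adhesion and calcium-handling genes of smooth muscle, 19 were tested, of which 1 rose, 1 fell and 17 did not pass, with a median log2 fold change of 0.03. Of all tested rows 13.0% passed in either direction, which is close to 2 of 19. The 13 genes not tested were detected on 0 arrays, and 2 of them had a mean intensity above 200. Pdlim3, an actin-associated LIM protein of muscle, had values of 10.80, 10.67 and 10.78 in ScAtrxKO, against 10.28, 10.30 and 10.29 in wild-type testes. It rose by 0.46 on the log2 scale (SE 0.05, adjusted p = 0.00103 from limma), and no value overlapped. Csrp1, a LIM protein of smooth muscle and other actin-rich cells, had 10.90, 10.79 and 10.93 in ScAtrxKO and 11.03, 11.14 and 11.15 in wild-type testes. Its change was -0.23 (SE 0.05, adjusted p = 0.0295). The call of Csrp1 was lost without wild-type replicate 2 (adjusted p = 0.104), wild-type replicate 3 (0.0751), ScAtrxKO replicate 1 (0.0618) or ScAtrxKO replicate 2 (0.0941), and under neqc (0.0514), log2 quantile normalization (0.146), median scaling (0.128) and an intensity trend (0.0551, or 0.0511 with robust estimation). Myl9, the regulatory light chain that Mylk phosphorylates, had a log2 fold change of 0.01 (adjusted p = 0.913), and vinculin (Vcl) had -0.04 (adjusted p = 0.710), both picked once their values were known.

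Among 19 transcription factors and cofactors of the smooth muscle program that the arrays carried, 11 were tested, of which 0 rose (2 at an unadjusted p under 0.05 in limma), 1 fell and 10 did not pass, with a median log2 fold change of 0.0090. The share of 1 in 11 is near the 5.50% of all tested rows that were lower and the 13.0% that passed in either direction. The gene that fell was Srf. Srf had normalized values of 9.31, 9.32 and 9.30 in ScAtrxKO, against 9.59, 9.46 and 9.61 in wild-type testes, with no overlap. Its log2 fold change was -0.25 (SE 0.05, 95% interval -0.36 to -0.13, adjusted p = 0.0165 from limma). The adjusted p was 0.0526 without wild-type replicate 1 and 0.0535 without ScAtrxKO replicate 2, and 0.0772 and 0.0900 with log2 quantile normalization and median scaling. On the non-normalized scale the intensities of Srf overlapped, 523.6 to 699.2 in ScAtrxKO and 638.5 to 739.1 in wild-type testes. Myocardin (Myocd), the muscle-specific cofactor of SRF, was near background and had a log2 fold change of 0.01 (adjusted p = 0.911). Csrp2, a LIM protein cofactor, had 0.42 (SE 0.12, adjusted p = 0.0538) and did not pass. Myocd and Csrp2 were picked once their values were known.

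The relatives of the 10 genes that other cell types use were examined next. Of the 17 such rows on the arrays, 10 were tested, 1 rose and 9 did not pass (0 fell, also at an unadjusted p under 0.05 in limma), and the median log2 fold change was 0.10. Of all tested rows 7.47% rose and 13.0% passed in either direction, which is close to 1 of 10. Myh9, a non-muscle myosin heavy chain, had values of 9.97 to 10.12 in ScAtrxKO and 9.79 to 9.83 in wild-type testes, with an adjusted p = 0.0271. It was detected on 0 ScAtrxKO arrays and 1 wild-type array, so no fold is given, and its adjusted p exceeded 0.05 under log2 quantile normalization (0.118), median scaling (0.111) and an intensity trend (0.0522, or 0.0506 with robust estimation), and without wild-type replicate 1 (0.0668), wild-type replicate 3 (0.0657), ScAtrxKO replicate 2 (0.0638) or ScAtrxKO replicate 3 (0.0607). Tpm4, a non-muscle tropomyosin, had a log2 fold change of 0.69 (SE 0.19) and Tagln2, the widely expressed relative of transgelin, 0.28 (SE 0.08), each with an adjusted p = 0.0538, while cytoplasmic beta-actin (Actb) had -0.03 (adjusted p = 0.810). Vimentin (Vim), the intermediate filament of mesenchymal cells and the relative of desmin, was bright but not detected, at 2301 ± 307 in ScAtrxKO and 1561 ± 199 in wild-type testes (intensity, SD, n = 3 each), and it was not tested and no fold is given. Tpm4, Tagln2, Actb and Vim were picked once their values were known.

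Several receptors through which peritubular myoid cells are addressed rose. Of 20 genes for signals and receptors of these cells, 16 were tested, of which 5 rose and 11 did not pass (0 fell, also at an unadjusted p under 0.05 in limma), with a median of 0.10. The background share of rows that rose was 7.47%. Ednra, the endothelin A receptor, had 11.43, 11.41 and 11.50 in ScAtrxKO, against 10.69, 10.73 and 10.60 in wild-type testes. It rose by 0.77 on the log2 scale (SE 0.05, adjusted p = 2.0e-04 from limma), a 1.71-fold difference. Pdgfra, the alpha receptor of platelet-derived growth factors, had 11.00, 11.03 and 11.31 in ScAtrxKO and 10.49, 10.47 and 10.32 in wild-type testes. It rose by 0.69 (SE 0.09, adjusted p = 0.00282), although its detection p was under 0.01 on only 2 ScAtrxKO arrays and 1 wild-type array. Pdgfra is also carried by fibroblasts and Leydig precursors.

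Agtr1a and Avpr1a, also receptors of contractile hormones, gave smaller changes than Ednra on the variance-stabilized scale, which compresses dim rows. Agtr1a, an angiotensin II receptor, had 8.07, 8.26 and 8.22 in ScAtrxKO, against 7.88, 7.88 and 7.91 in wild-type testes, and rose by 0.29 (SE 0.06, adjusted p = 0.0134). Avpr1a, a vasopressin receptor, had 8.54, 8.62 and 8.45 in ScAtrxKO, against 8.30, 8.31 and 8.34 in wild-type testes, and rose by 0.22 (SE 0.05, adjusted p = 0.0279). Neither receptor overlapped between genotypes. Both are dim. With plain log2 values and quantile normalization Agtr1a had 1.43 and Avpr1a 0.54, beside 0.80 for Ednra. The adjusted p of Agtr1a was 0.0501 under neqc, 0.0531 without wild-type replicate 2 and 0.0503 without ScAtrxKO replicate 2. That of Avpr1a exceeded 0.05 under neqc (0.0606) and log2 quantile normalization (0.0546), and on leaving out any of wild-type replicates 1, 2 and 3 (0.0744, 0.0911 and 0.0522) or ScAtrxKO replicates 1 and 2 (0.0726 and 0.0874). The fifth gene, the macrophage growth factor Csf1, rose by 0.21 (SE 0.06, adjusted p = 0.0467). Its call was lost when any 1 of the 6 arrays was left out (adjusted p 0.0547 to 0.123), under neqc (0.0979), log2 quantile normalization (0.0841), median scaling (0.0799), array weights (0.0622) and the replicate block (0.0612), and without the detection filter (0.0620). Desert hedgehog (Dhh), which Sertoli cells secrete, had a log2 fold change of -2.3e-04 (adjusted p = 0.999) and its receptor Ptch1 0.07 (adjusted p = 0.322). Csf1, Dhh and Ptch1 were picked once their values were known.

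**Figure D4:**
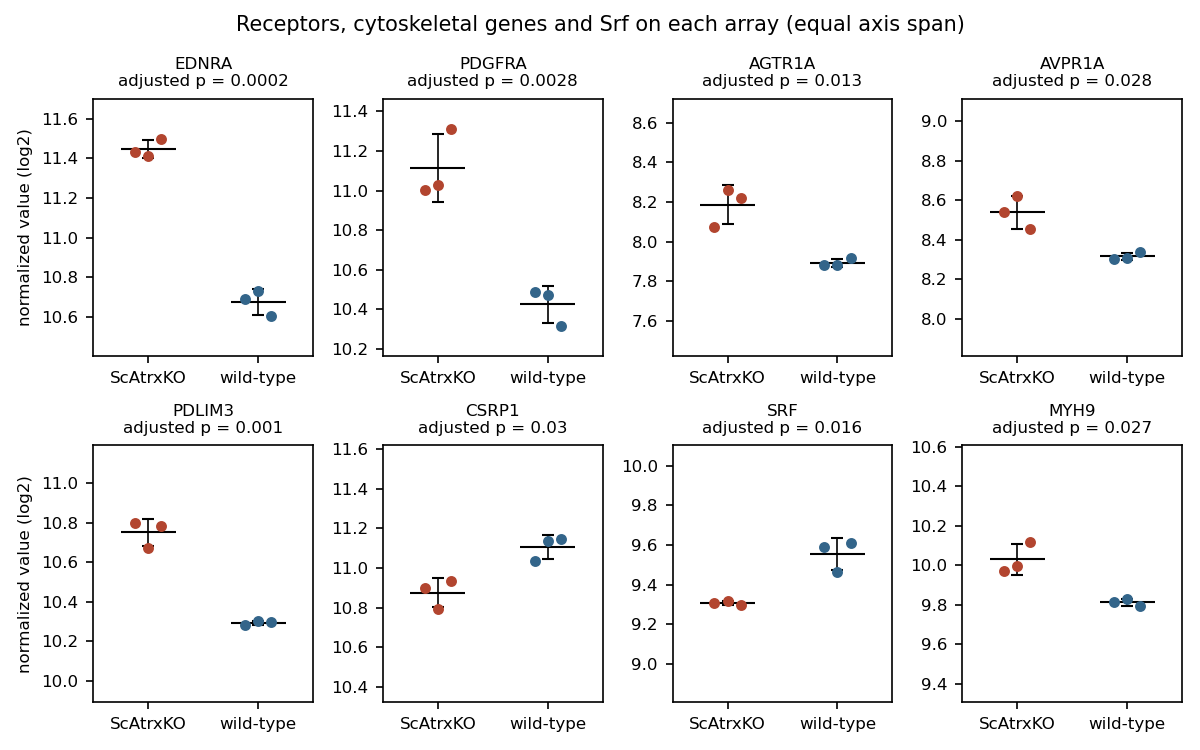
Normalized value (log2) of 8 related genes on the 3 ScAtrxKO arrays (left in each panel) and the 3 wild-type arrays (right); points are arrays, bars the mean and whiskers the SD. Ednra and Pdgfra show the widest gaps, at 0.77 and 0.69, while Srf and Csrp1 lie lower in ScAtrxKO testes.

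Markers of other interstitial cells were higher beside Des and the receptors. Of 8 macrophage markers 7 rose, of 6 tested fibroblast markers 4, of 8 tested endothelial markers 6 and of 6 Leydig cell markers 3, where 7.47% of all tested rows rose. The summed scaled intensity of the fibroblast list was 8517 to 9145 in ScAtrxKO and 4884 to 5513 in wild-type testes. The macrophage list summed to 4741 to 5426 in ScAtrxKO and 1773 to 2574 in wild-type testes, and the endothelial list to 2538 to 2591 in ScAtrxKO and 1711 to 1729 in wild-type testes. For the Leydig list it was 5142 to 9132 in ScAtrxKO and 3114 to 4338 in wild-type testes. None of these ranges overlapped between genotypes. Cyp17a1, a bright gene of the Leydig list picked once its values were known, overlapped and did not pass (adjusted p = 0.218 from limma). The brightest genes of a list weigh most in such a sum. The same sum over the 10 smooth muscle genes was 12821 to 14155 in ScAtrxKO and 13167 to 14553 in wild-type testes, which overlapped. Most of that sum came from Acta2 and Mylk, so it says little of the dimmer genes, Des among them, and it includes Myh11, which was not detected. Mural cells of vessels also express much of the contractile program. Of their 7 tested markers 0 passed in limma, where 13.0% of all tested rows passed in either direction. At an unadjusted p under 0.05 in limma 2 were higher. The mural list summed to 1199 to 1366 in ScAtrxKO and 996 to 1186 in wild-type testes, which did not overlap. Of the 7 fold changes 4 were above 0 and 3 below. Rgs5, Notch3, Cspg4, Mcam and Gja4 of that list were detected on all 6 arrays, and Abcc9, Angpt1 and Cox4i2 on 0. The part of these cells in the rise of Des and of the receptors was not tested.

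Skeletal and cardiac muscle, which express Des and Tpm2 too, had markers that were undetected or dim. Of 18 markers on the arrays 10 were detected on no array, among them Ckm, Myh1, Myh2, Myh4 and Tnnt3. Another 3, Myh3, Myh8 and Mylpf, were detected on all 6 arrays. The list summed to 395 to 467 in ScAtrxKO and 533 to 613 in wild-type testes. On the same scale Des alone had means of 526 in ScAtrxKO and 248 in wild-type testes. Of the 8 tested, 0 passed in limma, where 13.0% of all tested rows passed. At an unadjusted p under 0.05, a limit that many of all tested rows met, 3 of the 8 were lower. The part of striated muscle in the change of Des was not tested. Epididymal markers summed to 21.9 to 34.6 in ScAtrxKO and -10.0 to -5.86 in wild-type testes, all near background. Pax2, Lcn9 and Crisp1 were detected on 0 arrays. Lcn8 was detected on 2 ScAtrxKO arrays and Pax8 on 1, and both on 0 wild-type arrays. These 2 were tested and 0 passed in limma, where 13.0% of all tested rows passed. Among germ cell markers, 3 of 6 tested fell (5.50% of all tested rows), and of 8 tested Sertoli cell markers 1 rose (7.47% of all tested rows). Atrx was detected on 0 of the 6 arrays, with an intensity of 3.03 ± 0.551 in ScAtrxKO and 3.53 ± 1.81 in wild-type testes (SD, n = 3 each), so it could not check the genotypes. The mean intensity of an array was 349.8 to 469 in ScAtrxKO and 368 to 381 in wild-type testes. With 3 samples against 3 a two-sided exact permutation test of a single gene cannot go below p = 0.1, and the number of arrays limits the precision.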

How the data were processed

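Gene expression was measured in 3 ScAtrxKO and 3 wild-type P12 testes. Background subtraction and averaging of probes to gene rows were done by the authors in GenomeStudio, of unstated version, and the linear intensity of each row was deposited beside its detection p-value. Variance-stabilized, quantile-normalized log2 values, made with lumi by the authors, were deposited as well. Columns named WT and M were taken as the wild-type and ScAtrxKO samples of the same number, and 0 columns were unmapped. The deposited sheets of fold changes, p-values and GO terms hold the authors' own comparisons and were not used.

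The normalized values were fitted with limma 3.58.1 (lmFit, eBayes) in R 4.3.3, with genotype as the only term. Rows with a detection p under 0.01 on at least 1 array were tested and p-values were adjusted by Benjamini-Hochberg. The procedure was tested on simulated data. Of 187 list genes 178 were on the arrays by name, and the 10 smooth muscle genes all matched a symbol in GRCm38.p6. Named genes are the 10, and up to 4 that passed from each of 4 related lists, with other names marked as chosen later. The genes and lists were chosen with earlier results of these data known. For scaled intensities and their sums, each array was scaled to a common median of the rows detected on all arrays. Alternatives were neqc (offset of 16), log2 values floored at an intensity of 1 with quantile normalization or median scaling, the series' value table, other detection filters, trend and robust variance, array weights, a replicate block, treat and leaving out each array. One gene of the signal list is counted there but not reported here by name.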

Additional observations from a re-analysis of the deposited data

How the results depend on the processing

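Des was the smooth muscle gene that passed under every alternative except treat against a change of 1.5-fold, and 0 smooth muscle genes were lower under any. With treat, 0 smooth muscle genes were higher, 0 passed with the fold limit, and 0 contractile genes, 0 regulators, 0 relatives and 0 signal genes passed. With neqc 1 contractile and 2 signal genes passed, with log2 quantile normalization 1 contractile gene, 0 regulators, 0 relatives and 3 signal genes, with median scaling 1 contractile gene, 0 regulators and 0 relatives, and with an intensity trend, plain or robust, 1 contractile gene and 2 regulators. The trend without robust estimation gave 2 relatives, array weights 3 regulators and 3 relatives, and detection on at least 3 arrays 2 regulators. Without the detection filter 3 contractile genes and 2 relatives passed. The cause of these shifts was not tested. When each array was left out in turn, 0 to 1 smooth muscle genes passed with the fold limit, 1 to 2 contractile genes, 0 to 2 regulators, 0 to 3 relatives and 2 to 4 signal genes passed. Genes without a call changed sign: Actg2 (-0.013) and Mylk (-0.0079) with array weights, and with single arrays left out Actg2 ranged from -0.0734 to 0.140, Mylk from -0.0440 to 0.0523 and Tpm2 from -0.0252 to 0.0622. Same-numbered samples deviated from their genotype means with correlations of 0.0029, 0.0467 and 0.0803, and differently numbered ones with -0.0695 to 0.0378. Not every sample correlated best with its own number. So few pairs cannot show whether same-numbered samples were paired. With the replicate block 2 regulators, 2 relatives and 4 signal genes passed, and 896 rows were higher and 661 lower, against 973 and 717 without it, and of the genes named with a call Csf1 lost it. Leaving out single arrays gave 548 to 840 rows higher and 275 to 651 lower, and treat gave 24 and 1. A slide term was not run, since the tables carry no slide. Of the rows left untested by the detection filter, 367 had a mean intensity above 200. This limits what can be said of Myh11 and Vim, and of 2 contractile genes and 1 signal gene among these rows.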
